A study of Mus musculus with 18 samples.

Results

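The genes examined here are 40 genes of glucose use: the enzymes and transporters of glycolysis, the enzymes that build and break down glycogen, and the hypoxia factor Hif1a. A gene was measured where the array annotation gives a probeset that symbol and no other, and the probeset with the highest mean was taken where a gene had several. This gave 36 of the 40 genes, out of 19938 genes measured in the same way. Gpi1, Eno1, Pfkfb1 and Gapdh were not analysed here, and for Gapdh all 25 probesets that carry the symbol also carry others.

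XCR1+ dendritic cells (DCs), the DC type that presents antigen from dying cells to CD8 T cells, were sorted from the thymus of untreated B6 mice and profiled on 18 Affymetrix arrays, 3 in each of 6 groups. Immature cells (CCR7-) had the surface phenotype CD11b- CD11c+ MHCII+ CD172a- XCR1+ CD8a+ with CD117 present and CCR7 absent. Homeostatically matured cells (CCR7+) shared that phenotype but lacked CD117 and carried CCR7. Each stage came from wild-type mice in specific pathogen-free (SPF) housing (CTRL), from SPF mice without the type I interferon receptor chain (Ifnar1-KO), and from germ-free wild-type mice (GF). The title of the series names the question as whether this maturation needs type I interferon or the microflora. Neither ages nor the number of mice behind the 3 arrays of a group are stated in the labels, and p-values therefore reflect the spread between these arrays alone, which may be technical.

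Arrays of 1 group correlated at 0.974 to 0.996 over all genes and arrays of different stages at 0.905 to 0.939. Of 6 listed genes of conventional DCs, Flt3, Zbtb46 and Cd74 passed in no background, with Flt3 at 9.78 to 10.66 log2 units on all arrays. Itgax (CD11c), Ciita and H2-Ab1 fell in every background. Itgax lay at 9.66 to 10.19 in CCR7- and 6.44 to 8.17 in CCR7+ cells, Ciita at 8.39 to 9.19 and 5.4 to 6.44, and H2-Ab1 at 12.33 to 12.46 and 11.84 to 12.26. Of 10 listed XCR1+ DC genes 8, 7 and 7 fell in CTRL, Ifnar1-KO and GF and 1 rose in each. Ccr7 separated the gates, at 7.25 to 9.09 in CCR7- and 11.79 to 12.09 in CCR7+ cells. Xcr1 was lower in the cells sorted as CCR7+ (4.89 to 8.36) than in CCR7- cells (11.28 to 11.56). The mean level of 17 measured thymocyte markers, of 20 listed, was 4.56 to 5.28 on CCR7- arrays and 5.32 to 7.94 on CCR7+ arrays, highest in Ifnar1-KO CCR7+ replicate 2. Ifnar1 itself read 7.27 to 8.07 in Ifnar1-KO and 8.06 to 8.09 in CTRL CCR7- cells, and 6.07 to 7.61 against 7.61 to 7.82 in CCR7+ cells. The Ifnar1 ranges of the knockout and control arrays thus overlapped in CCR7- cells and met in CCR7+ cells, and the position of this probeset relative to the deleted part is not stated in the labels.

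Glycolysis splits glucose into pyruvate and yields ATP without oxygen, and lactate dehydrogenase then turns pyruvate into lactate so that the pathway can go on. Several steps are carried out by alternative isozymes, encoded by different genes with different tissue patterns. Glycogen is a store of glucose units inside the cell: glycogen synthase and branching enzyme build it, and glycogen phosphorylase releases its units as glucose phosphate. In DCs, glycolysis and intracellular glycogen are known to feed the early response to activation.

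Of the 36 measured genes, 19 changed with maturation in CTRL mice, 6 of them higher and 13 lower in CCR7+ cells (limma, Benjamini-Hochberg adjusted p under 0.05 over all genes). That is 52.8% of the genes, beside 26.2% of all genes. By direction it is 16.7% higher beside 12.6% of all genes, and 36.1% lower beside 13.6%. The median log2 change of the 36 was -0.12, against 0.07 for all genes. Called genes are commoner among well-expressed genes: of those at or above the median level, 16 of 28 members (57.1%) and 44.9% of all such genes were called.

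In Ifnar1-KO mice 16 genes changed, 8 in each direction (44.4%, beside 20.2% of all genes), and in GF mice 17 did, 7 higher and 10 lower (47.2%, beside 21.3%). By direction the shares of all genes were 9.42% higher and 10.8% lower in Ifnar1-KO, beside 22.2% and 22.2% of the members, and 9.53% and 11.8% in GF, beside 19.4% and 27.8%. The median log2 changes were -0.13 and -0.06, against 0.00 and 0.03 for all genes. Of the genes at or above the median level, 15 of 28 members (53.6%) were called in Ifnar1-KO, beside 40.2% of all such genes. In GF 17 of 28 (60.7%) were called, beside 40.8%. Higher in all 3 backgrounds were Slc2a6, Pfkfb3, Aldoa, Eno2, Eno3 and Pygl. Lower in all 3 were Slc2a1, Hk2, Pfkl, Pfkp, Tpi1, Pgam1, Ldha and Pdk1. These same 14 genes (38.9%, beside 15.3% of all genes) had no overlap between the 9 CCR7- and the 9 CCR7+ arrays, 6 of them higher (7% of all genes) and 8 lower (8.28%). Within a background the stages did not overlap for 23 genes in CTRL (63.9%, beside 49% of all genes), 19 in Ifnar1-KO (52.8%, beside 29.6%) and 21 in GF (58.3%, beside 33.6%). Another 7 genes were called in 1 or 2 backgrounds, 15 in none, and none was called in opposite directions. The shares of all genes with these patterns of calls were not counted, so nothing is read from how many members show each.

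**Figure D1:**
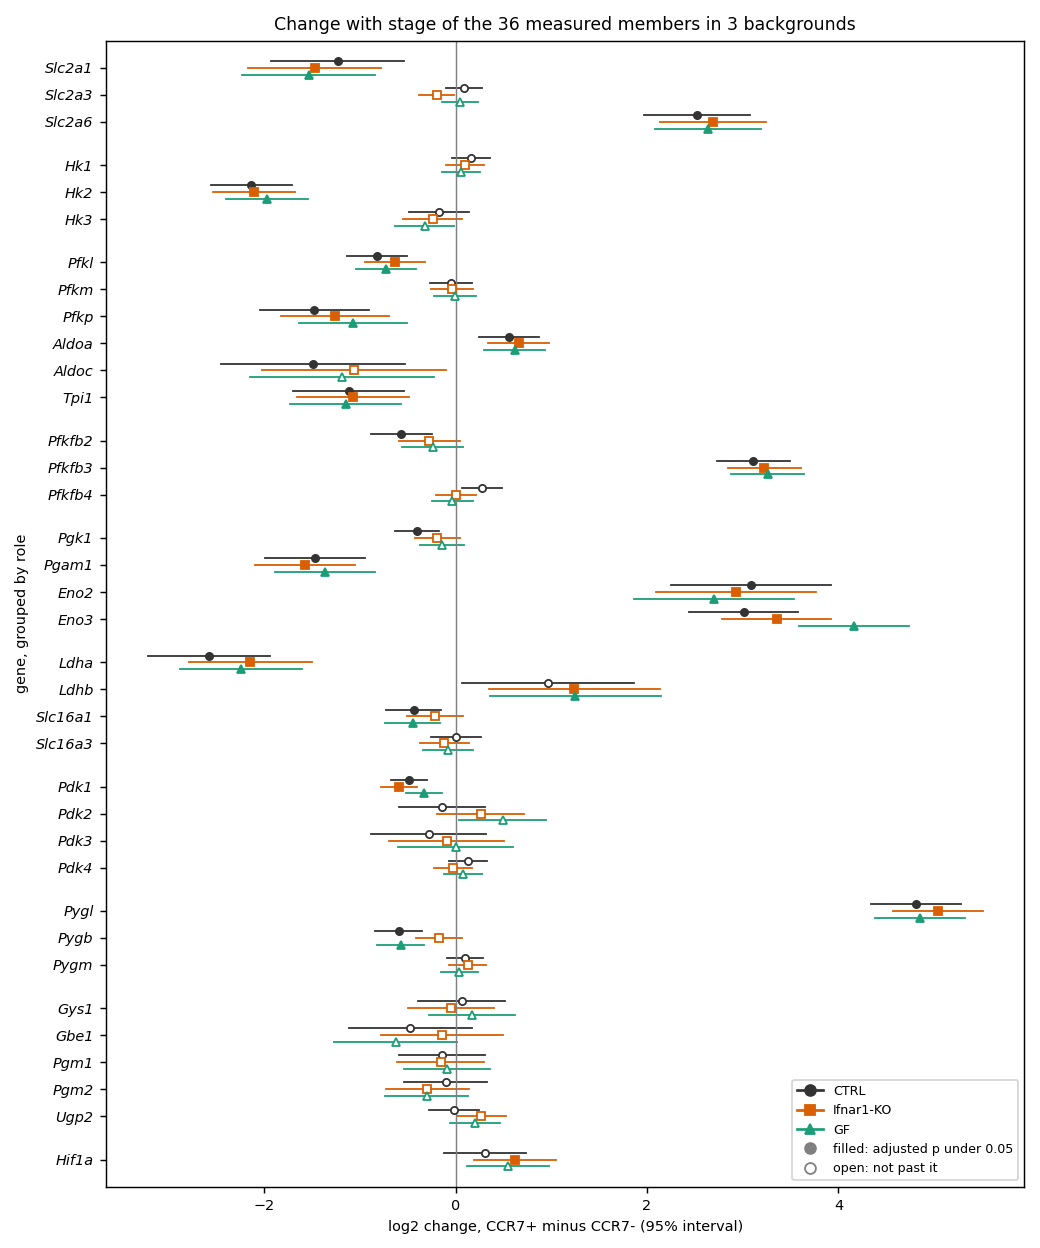
Log2 change from CCR7- to CCR7+ cells (x axis) of each of the 36 measured genes, grouped by role, with the 95% interval from limma and 1 symbol for each background (3 arrays per group). Pygl lies furthest to the right, at 4.81, 5.04 and 4.85, and Ldha furthest to the left, at -2.58, -2.14 and -2.24 in CTRL, Ifnar1-KO and GF.

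The promoters of 4 of these genes are shown because they are the glycogen phosphorylase and glucose transporter genes that rose and the hexokinase and lactate dehydrogenase genes that fell, and because hypoxia factors bind a short core that these windows can be searched for. Each window runs from 250 bases before to 50 after the start given by RefSeq (build GRCm38.p6). Capitals mark ACGTG or GCGTG, the core letters bound by hypoxia factors, on either strand, so that the reverse strand reads CACGT or CACGC. The Pygl window is chr12:70227634-70227933 (minus strand), that of Slc2a6 chr2:27027949-27028248 (minus), that of Hk2 chr6:82774405-82774704 (minus) and that of Ldha, the first of its 2 listed, chr7:46845554-46845853 (plus).
Pygl: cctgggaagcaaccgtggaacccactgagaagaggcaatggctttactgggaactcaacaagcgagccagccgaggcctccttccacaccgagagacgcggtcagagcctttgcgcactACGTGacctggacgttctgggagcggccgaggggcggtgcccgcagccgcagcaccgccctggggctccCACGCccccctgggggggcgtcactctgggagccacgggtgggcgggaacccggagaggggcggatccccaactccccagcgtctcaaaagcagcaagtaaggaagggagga
Slc2a6: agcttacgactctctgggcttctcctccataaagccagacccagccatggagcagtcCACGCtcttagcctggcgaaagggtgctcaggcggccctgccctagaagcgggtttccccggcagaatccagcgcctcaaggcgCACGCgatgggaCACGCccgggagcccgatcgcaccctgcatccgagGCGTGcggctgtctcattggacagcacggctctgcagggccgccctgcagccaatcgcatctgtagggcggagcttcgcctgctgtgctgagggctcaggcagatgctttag
Hk2: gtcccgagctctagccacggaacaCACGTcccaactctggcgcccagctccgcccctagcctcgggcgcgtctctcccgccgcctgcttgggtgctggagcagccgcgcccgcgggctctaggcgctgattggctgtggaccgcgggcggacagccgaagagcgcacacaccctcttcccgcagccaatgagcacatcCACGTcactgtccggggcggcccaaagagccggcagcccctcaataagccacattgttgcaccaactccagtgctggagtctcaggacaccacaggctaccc
Ldha: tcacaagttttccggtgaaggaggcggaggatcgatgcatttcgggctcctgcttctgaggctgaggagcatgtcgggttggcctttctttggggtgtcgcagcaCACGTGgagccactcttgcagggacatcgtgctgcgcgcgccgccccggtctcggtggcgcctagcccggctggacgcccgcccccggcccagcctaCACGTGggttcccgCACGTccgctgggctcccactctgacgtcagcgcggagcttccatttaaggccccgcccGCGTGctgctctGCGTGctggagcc

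Promoter windows were listed for 35 of the 36 genes, all but Slc2a3. A core was present in at least 1 window of 31 of these 35 genes (88.6%), against 46.7% of all 27025 genes with a window. Counted by window, 39 of 49 (79.6%) held one, against 43.8% of all 32851 windows. ACGTG alone was in 55.1% against 19.6%, GCGTG in 53.1% against 32.4%, and CACGTG, the E-box that contains ACGTG on both strands, in 14.3% against 7.15%. The windows of these genes were also richer in G and C, with a median of 60.7% against 52.7%, and of all windows at or above the first value 70.1% held a core.

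The core did not separate the directions. It was present in 5 of the 6 genes called higher in CTRL, in 12 of the 13 called lower and in 14 of the 16 others with a window. Eno2, which rose, and Tpi1, which fell, had none in theirs. A match describes the letters of the window only, and binding was not measured.

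**Figure D2:**
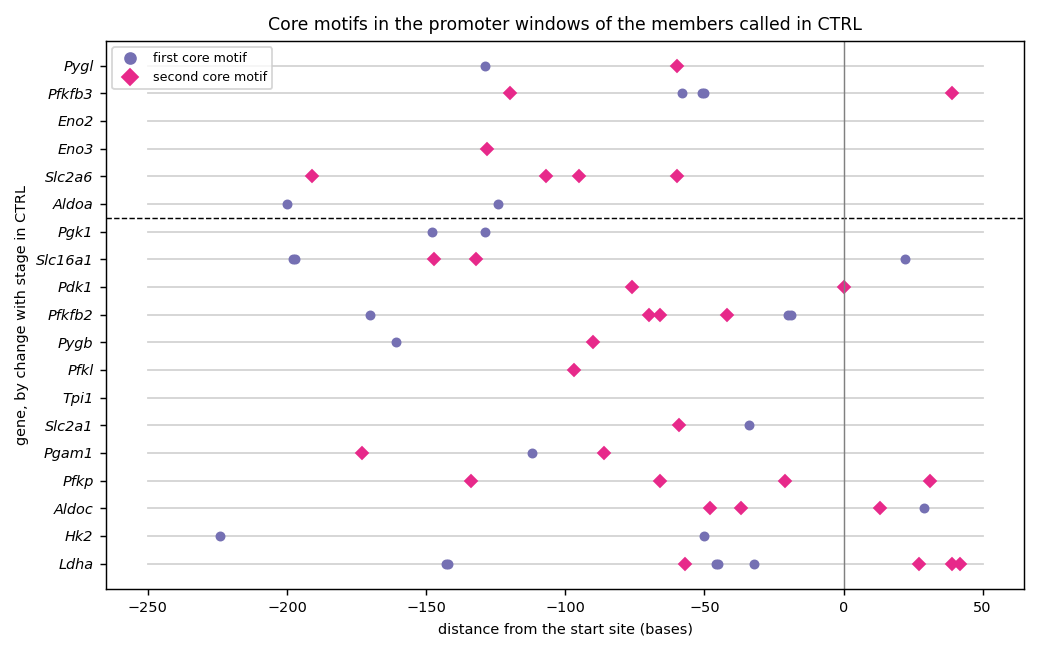
Distance of each core match from the start site in bases (x axis) for the 19 genes called in CTRL, ordered by log2 change, with all windows of a gene drawn on 1 line. Circles are the first core (ACGTG), diamonds the second (GCGTG), and the dashed line parts the 6 genes that rose from the 13 that fell. Matches lie on both sides of it, and the Eno2 and Tpi1 lines are empty.

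The glucose transporters moved in opposite directions. Slc2a1 encodes GLUT1, the widely expressed plasma membrane glucose transporter. In CTRL its log2 intensity was 7.49, 7.65 and 7.40 on the CCR7- arrays and 6.17, 6.32 and 6.36 on the CCR7+ arrays. In Ifnar1-KO it was 7.44, 8.51 and 7.61 against 6.17, 6.36 and 6.62, and in GF 7.48, 7.97 and 7.97 against 6.09, 7.14 and 5.58. Every CCR7- array was above every CCR7+ array, and GF CCR7+ cells had the widest spread. The log2 change was -1.23 ± 0.33 (SE) in CTRL (adjusted p = 0.0108), -1.47 in Ifnar1-KO (adjusted p = 0.00382) and -1.53 in GF (adjusted p = 0.00275).

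Slc2a6 encodes GLUT6, a transporter held largely in intracellular, lysosomal membranes. Its log2 intensity in CTRL was 6.26, 6.73 and 6.60 in CCR7- cells and 9.0, 8.95 and 9.2 in CCR7+ cells. In Ifnar1-KO the values were 6.14, 6.99 and 5.85 against 9.38, 8.89 and 8.78, and in GF 6.29, 6.39 and 6.55 against 9.11, 9.41 and 8.62. The stages were far apart in each background, with all CCR7- arrays below all CCR7+ arrays. Slc2a6 thus rose 5.73-fold in CTRL (log2 change 2.52 ± 0.26, adjusted p = 3.64e-06), and by 2.69 and 2.64 on the log2 scale in Ifnar1-KO and GF. Slc2a3, which encodes the high-affinity transporter GLUT3, stayed between 4.42 and 4.87 on all arrays and passed in no background (log2 changes 0.09, -0.20 and 0.05). Its level was near the top of the range of the unexpressed guide genes described below (3.08 to 4.57) and may be background.

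Hexokinases trap glucose in the cell by phosphorylating it. Hk2, the inducible isozyme bound to mitochondria, had log2 intensities of 7.05, 6.73 and 6.49 in CTRL CCR7- cells and 4.53, 4.57 and 4.78 in CTRL CCR7+ cells. The Ifnar1-KO arrays read 6.67, 7.26 and 6.85 against 4.89, 4.95 and 4.62. The GF arrays read 6.99, 6.73 and 6.15 against 4.74, 4.61 and 4.61. All 9 CCR7+ arrays were below all 9 CCR7- arrays and close to each other. Their levels, 4.53 to 4.95, were near the top of the range of the unexpressed guide genes described below (3.08 to 4.57) and may be background. Hk2 fell by 2.13 ± 0.20 on the log2 scale in CTRL (adjusted p = 1.37e-06), with log2 changes of -2.10 in Ifnar1-KO and -1.97 in GF.

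Hk3, an isozyme of myeloid cells, lay between 4.53 and 5.31 and passed in no background (log2 changes -0.17, -0.24 and -0.32). The probeset that the rule takes for Hk1, the housekeeping isozyme, changed by 0.16, 0.10 and 0.05, none past the threshold. That probeset is tied to Hk1 through 1 accession, and the 16 probesets that carry Hk1 with other symbols all carry Rpl17, a ribosomal protein gene, so it may not measure Hk1. The other Hk1 probeset, tied to 8 accessions, lay between 4.76 and 5.53 and rose by 0.52 ± 0.16 in CTRL (adjusted p = 0.025 over all probesets). Its log2 changes in Ifnar1-KO and GF, 0.15 and 0.40, did not pass (adjusted p = 0.642 and 0.096).

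In upper glycolysis 1 of 6 measured genes rose and 4 fell in CTRL (83.3% called, beside 26.2% of all genes). With 6 genes, nothing is read from this share. Phosphofructokinase, the committing step of the pathway, has liver, muscle and platelet forms. Pfkp, the platelet form, had CTRL log2 intensities of 9.41, 9.40 and 9.30 in CCR7- and 7.87, 8.02 and 7.79 in CCR7+ cells. It read 9.57, 8.66 and 9.66 against 8.21, 7.59 and 8.31 in Ifnar1-KO, and 9.67, 8.96 and 8.70 against 8.01, 8.10 and 7.99 in GF. The stages did not overlap, but Ifnar1-KO replicate 2 was low in both. The log2 change was -1.47 ± 0.26 in CTRL (adjusted p = 0.00062), -1.26 in Ifnar1-KO (adjusted p = 0.00261) and -1.08 in GF (adjusted p = 0.00776).

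Pfkl, the liver form, fell with it, with log2 changes of -0.82, -0.64 and -0.73 in CTRL, Ifnar1-KO and GF (SE 0.15). The Ifnar1-KO call for Pfkl ended when both replicate 2 arrays of that background were left out (log2 change -0.45, adjusted p = 0.0896). Pfkm, the muscle form, lay between 3.82 and 4.27 and did not pass in any background. That is within the range of 3.08 to 4.57 read by 5 genes of thymic epithelium, red cell precursors and neutrophils (Psmb11, Klf1, Elane, Mpo and Ly6g), which serve as a rough guide to unexpressed genes because background differs between probesets.

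Tpi1, which interconverts the triose phosphates made by aldolase, fell. Its log2 intensity in CTRL was 9.01, 8.81 and 8.61 in CCR7- and 7.58, 7.91 and 7.58 in CCR7+ cells. In Ifnar1-KO the values were 8.77, 9.54 and 8.75 against 7.46, 8.35 and 8.04, and in GF 8.91, 9.19 and 8.87 against 7.25, 8.16 and 8.12. Every CCR7+ array was below every CCR7- array. The log2 changes were -1.12 ± 0.27 (adjusted p = 0.00648), -1.07 (adjusted p = 0.0101) and -1.15 (adjusted p = 0.00615). The Ifnar1-KO call ended without Ifnar1-KO CCR7- replicate 2 (log2 change -0.81, adjusted p = 0.0523) or CCR7+ replicate 1 (-0.82, adjusted p = 0.0593), and with the Ifnar1-KO arrays fitted on their own (adjusted p = 0.0706).

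The aldolases, which split fructose bisphosphate, moved apart. Aldoa, the muscle-type and most widely expressed form, lay between 10.25 and 10.66 in CCR7- cells and between 10.69 and 11.32 in CCR7+ cells, with no overlap. It rose by 0.56 ± 0.15 on the log2 scale in CTRL (adjusted p = 0.011), 0.66 in Ifnar1-KO and 0.62 in GF. The CTRL call ended without CTRL CCR7- replicate 3 (log2 change 0.45, adjusted p = 0.0576) or CCR7+ replicate 3 (0.44, adjusted p = 0.0635).

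Aldoc, the brain form, had CTRL log2 intensities of 7.21, 4.83 and 6.23 in CCR7- and 4.65, 4.46 and 4.70 in CCR7+ cells. In Ifnar1-KO it read 5.97, 5.13 and 6.41 against 4.59, 4.87 and 4.87, and in GF 5.51, 5.93 and 6.45 against 4.89, 4.91 and 4.55. The CCR7- arrays scattered widely, and CTRL CCR7- replicate 2 was the lowest, within the CCR7+ range of the other backgrounds. The CCR7+ arrays, at 4.46 to 4.91, were near the guide genes and may be background. Aldoc fell in CTRL (log2 change -1.49 ± 0.45, adjusted p = 0.0233), while the changes of -1.06 in Ifnar1-KO and -1.18 in GF did not pass (adjusted p = 0.125 and 0.0795). The CTRL call ended without any 1 of 5 CTRL arrays, and without CTRL CCR7- replicate 1 the change was -0.93 (adjusted p = 0.12). Without CTRL CCR7- replicate 2 the CTRL change was -2.12, and the changes in Ifnar1-KO and GF passed (adjusted p = 0.0277 and 0.0147).

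The bifunctional PFKFB enzymes make and remove the sugar phosphate that activates phosphofructokinase. Pfkfb3, the isozyme weighted most to its synthesis, had log2 intensities of 8.29, 8.54 and 8.37 in CTRL CCR7- and 11.39, 11.54 and 11.60 in CTRL CCR7+ cells. The Ifnar1-KO values were 8.31, 7.81 and 8.21 against 11.42, 10.96 and 11.62. The GF values were 8.14, 8.16 and 7.66 against 11.46, 11.13 and 11.13. The stages lay far apart in every background, with little spread inside a group. Pfkfb3 rose 8.65-fold in CTRL (log2 change 3.11 ± 0.18, adjusted p = 1.29e-08), 9.36-fold in Ifnar1-KO and 9.58-fold in GF.

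Pfkfb2, the heart form, lay between 4.22 and 5.07 in CCR7- and between 3.96 and 4.57 in CCR7+ cells, the latter near the guide genes. It fell by 0.57 ± 0.15 on the log2 scale in CTRL (adjusted p = 0.0115). Its log2 changes of -0.27 in Ifnar1-KO and -0.24 in GF did not pass. The CTRL call ended without CTRL CCR7- replicate 2 (log2 change -0.48, adjusted p = 0.0593) or CCR7+ replicate 1 (-0.44, adjusted p = 0.0601). Pfkfb4 lay between 3.87 and 4.36 on all arrays, within the range of the guide genes, and did not pass (log2 changes 0.28, 0.00 and -0.03).

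In lower glycolysis all 4 measured genes were called in CTRL (100%, beside 26.2% of all genes). With 4 genes, nothing is read from this share. The measured enolases Eno2 and Eno3 were higher and Pgk1 and Pgam1 lower, while Eno1 and Gapdh were not analysed here. Phosphoglycerate mutase Pgam1 had CTRL log2 intensities of 9.57, 9.25 and 9.14 in CCR7- and 7.77, 7.77 and 8.02 in CCR7+ cells. In Ifnar1-KO it read 9.10, 10.21 and 9.38 against 7.65, 8.24 and 8.08, and in GF 9.39, 9.16 and 9.35 against 7.59, 7.97 and 8.24. All CCR7+ arrays were below all CCR7- arrays. The log2 changes were -1.47 ± 0.24 (adjusted p = 0.000323), -1.57 (adjusted p = 0.000203) and -1.37 (adjusted p = 0.000673). Of the 3 Pgam1 probesets 2 held identical values, as did 2 of the 3 for Pgk1, so copies of these genes cannot be told apart here.

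Pgk1, the first ATP-yielding enzyme of the pathway, fell by 0.40 ± 0.11 on the log2 scale in CTRL (adjusted p = 0.0121). Its changes of -0.19 in Ifnar1-KO and -0.14 in GF did not pass. The CTRL call ended without CTRL CCR7+ replicate 2 (log2 change -0.34, adjusted p = 0.0527) or replicate 3 (-0.34, adjusted p = 0.0597).

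Enolase makes phosphoenolpyruvate. Eno2, the neuronal isozyme, had log2 intensities of 3.99, 3.95 and 4.26 in CTRL CCR7- and 6.21, 7.94 and 7.31 in CTRL CCR7+ cells. The values were 4.03, 4.06 and 3.96 against 7.58, 6.35 and 6.92 in Ifnar1-KO, and 3.89, 3.85 and 3.85 against 7.29, 5.97 and 6.41 in GF. The CCR7- arrays were tightly grouped at the level of the unexpressed guide genes, whereas the CCR7+ arrays spread over about 2 log2 units without reaching them. Eno2 rose by 3.08 ± 0.39 on the log2 scale in CTRL (adjusted p = 2.68e-05), 2.93 in Ifnar1-KO and 2.70 in GF (adjusted p = 5.22e-05 and 0.000108). These are differences of probeset signal, and no fold is given because the CCR7- level may be background.

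Eno3, the muscle isozyme, read 7.57, 6.84 and 7.46 in CTRL CCR7- and 10.43, 10.13 and 10.34 in CTRL CCR7+ cells on the log2 intensity scale. It read 6.75, 7.59 and 7.21 against 10.60, 10.46 and 10.55 in Ifnar1-KO, and 6.92, 6.17 and 5.74 against 10.24, 10.51 and 10.57 in GF. The CCR7+ arrays of all backgrounds lay close together, and GF CCR7- replicates 2 and 3 were the lowest of all. Eno3 rose 8.06-fold in CTRL (log2 change 3.01 ± 0.27, adjusted p = 7.92e-07), 10.23-fold in Ifnar1-KO and 17.9-fold in GF.

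**Figure D3:**
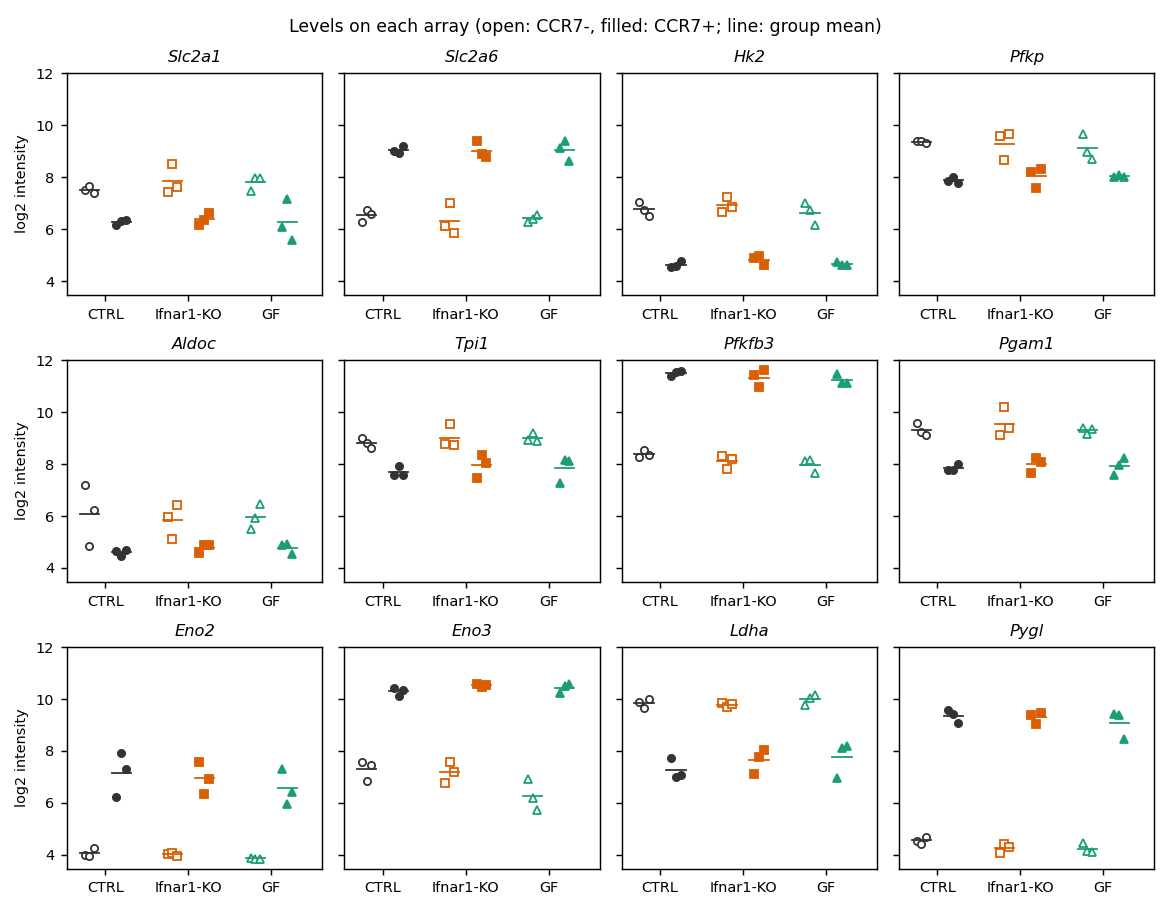
Log2 intensity on each array (y axis) of the 12 genes that passed in CTRL and moved by 1 log2 unit or more, by background, with open symbols for CCR7- and filled symbols for CCR7+ cells and a line at the mean of 3 arrays. Slc2a6, Pfkfb3, Eno2, Eno3 and Pygl are higher in CCR7+ cells in every background and the other 7 lower, and over all 18 arrays only Aldoc has stages that overlap.

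Lactate dehydrogenase joins pyruvate and lactate. Ldha, the subunit that favours lactate production, had CTRL log2 intensities of 9.89, 9.66 and 9.99 in CCR7- and 7.72, 7.0 and 7.09 in CCR7+ cells. In Ifnar1-KO the values were 9.83, 9.70 and 9.80 against 7.10, 7.78 and 8.03, and in GF 9.78, 10.06 and 10.17 against 6.96, 8.12 and 8.20. The CCR7- arrays of all backgrounds lay close together, well above every CCR7+ array. Ldha fell 5.97-fold in CTRL (log2 change -2.58 ± 0.30, adjusted p = 1.11e-05), 4.42-fold in Ifnar1-KO and 4.74-fold in GF.

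Ldhb, the subunit common in heart and lymphocytes, went the other way. Its log2 intensities were 4.69, 4.44 and 4.71 in CTRL CCR7- and 5.82, 5.09 and 5.84 in CTRL CCR7+ cells. In Ifnar1-KO they were 4.55, 5.03 and 4.66 against 5.13, 6.98 and 5.85, and in GF 4.43, 4.38 and 4.69 against 4.98, 5.63 and 6.65. The stages did not overlap within a background, but GF CCR7+ replicate 1 was below Ifnar1-KO CCR7- replicate 2. Ldhb rose in Ifnar1-KO (log2 change 1.24 ± 0.42, adjusted p = 0.0495) and GF (1.25, adjusted p = 0.0458), while the CTRL change of 0.97 did not pass (adjusted p = 0.106). With stages paired by replicate number the CTRL change passed (adjusted p = 0.0389).

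The mean level of the thymocyte markers was also higher on CCR7+ than on CCR7- arrays within each background. The highest Ldhb level, 6.98, and the highest mean marker level, 7.94, were on the same array, Ifnar1-KO CCR7+ replicate 2. Over the groups that mean was 4.56 to 4.95 in CCR7- and 5.32 to 6.13 in CCR7+ cells in CTRL, 4.69 to 5.28 and 5.44 to 7.94 in Ifnar1-KO, and 4.66 to 4.85 and 5.54 to 6.29 in GF. In GF CCR7+ cells the highest Ldhb level, 6.65 on replicate 3, had a marker mean of 5.89, whereas replicate 2, with the highest marker mean of that group, 6.29, had an Ldhb level of 5.63. Of the 17 measured markers 4 rose in CTRL, 4 in Ifnar1-KO and 3 in GF, and none fell. That is 23.5%, 23.5% and 17.6%, beside 12.6%, 9.42% and 9.53% of all genes called higher, and 26.2%, 20.2% and 21.3% called in either direction. Rag1 reached 10.31, while Ptcra stayed at 3.84 to 4.70. Their part in the Ldhb result was not tested, and in bulk samples a different number of cells of a type cannot be told apart from a different amount of RNA per cell. Without Ifnar1-KO CCR7+ replicate 2 the Ifnar1-KO change of Ldhb was 0.75 (adjusted p = 0.232), and without GF CCR7+ replicate 3 the GF change was 0.80 (adjusted p = 0.208). Leaving out most of the other arrays singly also ended these calls, at an adjusted p of up to 0.135 in Ifnar1-KO and 0.115 in GF.

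**Figure D4:**
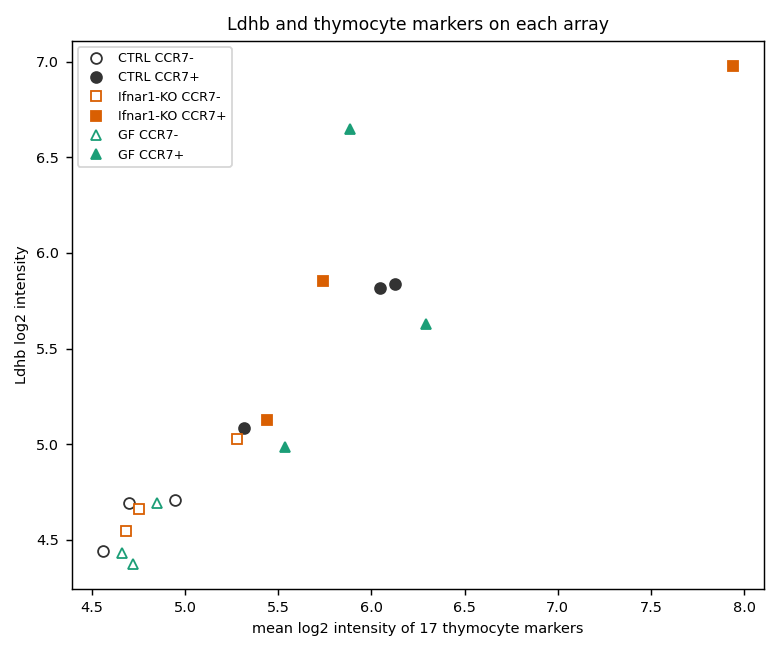
Ldhb log2 intensity (y axis) against the mean log2 intensity of 17 thymocyte markers (x axis) on each of the 18 arrays, by background and stage. The CCR7- arrays lie at the lower left, Ifnar1-KO CCR7+ replicate 2 at the upper right (7.94 and 6.98), and GF CCR7+ replicate 3 above the other arrays with a like marker level (5.89 and 6.65).

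The monocarboxylate transporters carry lactate and pyruvate across the cell membrane. Slc16a1 (MCT1) lay between 3.69 and 4.65, near the guide genes, and fell, with log2 changes of -0.44 ± 0.14 in CTRL and -0.45 in GF (adjusted p = 0.0268 and 0.0278). Its change of -0.21 in Ifnar1-KO did not pass. The CTRL call ended without CTRL CCR7- replicate 2 or 3 or CCR7+ replicate 2 or 3 (adjusted p = 0.0547 to 0.106). The GF call ended without GF CCR7- replicate 2 or 3 or CCR7+ replicate 1 or 2 (adjusted p = 0.0695 to 0.121). Slc16a3 (MCT4), the exporter of highly glycolytic cells, stayed between 5.54 and 6.11 and did not pass (log2 changes 0.01, -0.12 and -0.08).

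Pyruvate dehydrogenase kinases inhibit the pyruvate dehydrogenase complex, which converts pyruvate to acetyl-CoA inside mitochondria. Pdk1 read 4.92, 4.85 and 4.78 in CTRL CCR7- and 4.34, 4.28 and 4.47 in CTRL CCR7+ cells on the log2 intensity scale. The values were 4.77, 4.96 and 5.12 against 4.41, 4.32 and 4.34 in Ifnar1-KO, and 4.90, 4.97 and 4.82 against 4.67, 4.56 and 4.47 in GF. Every CCR7+ array was below every CCR7- array at a low level throughout, and the CCR7+ arrays, at 4.28 to 4.67, were near the guide genes. The log2 changes were -0.49 ± 0.09 (adjusted p = 0.000665), -0.60 (adjusted p = 0.000134) and -0.33 (adjusted p = 0.0127). The GF call ended without GF CCR7- replicate 2 (log2 change -0.30, adjusted p = 0.0544) or CCR7+ replicate 3 (-0.28, adjusted p = 0.0576).

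The other 3 kinases passed in no background. Pdk3 was the one with levels well above the guide genes, at 7.08 to 8.41, with log2 changes of -0.28, -0.09 and 0.00. Pdk2 changed by -0.14, 0.26 and 0.49 and Pdk4, at 3.29 to 3.77, by 0.13, -0.03 and 0.08.

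Pygl, the liver-type glycogen phosphorylase, had the largest difference of log2 intensity between stages among the 36 genes. Its log2 intensity was 4.55, 4.43 and 4.68 in CTRL CCR7- and 9.59, 9.42 and 9.07 in CTRL CCR7+ cells. In Ifnar1-KO it was 4.07, 4.41 and 4.29 against 9.39, 9.04 and 9.45, and in GF 4.45, 4.15 and 4.12 against 9.43, 9.38 and 8.46. The CCR7- arrays lay at or just above the guide genes and all CCR7+ arrays far above them. Pygl (probeset 10400844) rose by 4.81 ± 0.22 on the log2 scale in CTRL (adjusted p = 1.48e-09), 5.04 in Ifnar1-KO (adjusted p = 1.03e-09) and 4.85 in GF (adjusted p = 1.25e-09). As for Eno2, no fold is given against a level that may be background.

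The brain-type phosphorylase Pygb fell in CTRL and GF, with log2 changes of -0.60 ± 0.11 and -0.57 (adjusted p = 0.00104 and 0.00163). Its change of -0.17 in Ifnar1-KO did not pass (adjusted p = 0.379). Pygm, the muscle form, stayed between 3.86 and 4.2, within the range of the guide genes, and passed in no background.

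None of the 5 genes of glycogen synthesis and glucose phosphate handling passed in any background (0%, beside 26.2%, 20.2% and 21.3% of all genes). Gbe1, the branching enzyme and the one of these with the largest change in CTRL, had CTRL log2 intensities of 5.34, 4.80 and 5.33 in CCR7- and 5.04, 4.54 and 4.48 in CCR7+ cells. In Ifnar1-KO it read 4.78, 3.97 and 5.30 against 4.47, 4.83 and 4.32, and in GF 5.19, 5.0 and 5.2 against 3.96, 4.87 and 4.68. The stages overlapped in CTRL and Ifnar1-KO but not in GF. The log2 changes were -0.47 ± 0.30, -0.14 and -0.63 (adjusted p = 0.269, 0.846 and 0.172).

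Glycogen synthase Gys1 changed by 0.06 in CTRL (95% interval -0.39 to 0.52), -0.05 in Ifnar1-KO and 0.17 in GF on the log2 scale. Ugp2, which makes the activated glucose used by glycogen synthase, changed by -0.02 (95% interval -0.28 to 0.24), 0.27 and 0.20. The phosphoglucomutases Pgm1 and Pgm2 changed by -0.14 and -0.10 in CTRL, -0.16 and -0.30 in Ifnar1-KO, and -0.09 and -0.30 in GF.

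Hif1a encodes the oxygen-regulated subunit of the hypoxia factor, which is controlled mainly through protein stability. Its log2 intensity in CTRL was 7.49, 7.41 and 7.14 in CCR7- and 7.74, 7.71 and 7.52 in CCR7+ cells. In Ifnar1-KO it was 7.03, 6.62 and 7.33 against 7.37, 7.56 and 7.91, and in GF 7.57, 7.08 and 7.07 against 7.5, 7.81 and 8.05. The stages overlapped only in GF. Hif1a rose in Ifnar1-KO (log2 change 0.62 ± 0.20, adjusted p = 0.0382), while the changes of 0.31 in CTRL and 0.54 in GF did not pass (adjusted p = 0.277 and 0.069). The Ifnar1-KO call ended without Ifnar1-KO CCR7- replicate 1 or 2 or CCR7+ replicate 2 or 3 (adjusted p = 0.0685 to 0.168). The GF change passed without GF CCR7- replicate 1 (0.71, adjusted p = 0.0278), GF CCR7+ replicate 1 (0.69, adjusted p = 0.0385) or Ifnar1-KO CCR7- replicate 2 (adjusted p = 0.0425).

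Between backgrounds no gene of the 36 was called at either stage or in the difference of the stage changes (limma, adjusted p). Among all genes 0% were called in both differences of stage change and in Ifnar1-KO minus CTRL in CCR7- cells. In CCR7+ cells 0.015% were called for Ifnar1-KO, and for GF 0.015% in CCR7- and 0.0301% in CCR7+ cells. Calls of lower genes alone were 0.00502% in each of these 3 comparisons. These comparisons share the CTRL arrays. With an unadjusted p under 0.05, the difference of stage change held 2 genes in each background, with none and 3 for Ifnar1-KO minus CTRL in CCR7- and CCR7+ cells, and 3 and 4 for GF minus CTRL. As shares of the 36 these are 5.56% and 5.56%, beside 4.52% and 3.31% of all genes, then 0% and 8.33% beside 7.03% and 2.92%, and 8.33% and 11.1% beside 6.32% and 5.86%. With counts of 4 or fewer, nothing is read from these shares.

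The intervals set how large a difference could have gone unseen. For 26 of the 36 genes the 95% interval of the difference of stage change from CTRL lay within 1 log2 unit either way in Ifnar1-KO, and likewise for 26 in GF. For Pygl the difference was 0.23 (95% interval -0.44 to 0.89) in Ifnar1-KO and 0.04 (-0.62 to 0.71) in GF. For Pfkfb3 it was 0.11 (-0.43 to 0.66) and 0.15 (-0.40 to 0.69), and for Hk2 0.03 (-0.57 to 0.63) and 0.16 (-0.44 to 0.76). Ldha had wider intervals, at 0.43 (-0.47 to 1.34) and 0.33 (-0.57 to 1.24). The genes at an unadjusted p under 0.05 (limma) were Pygb (0.42) and Slc2a3 (-0.29) in Ifnar1-KO. In GF they were Eno3 and Pfkfb4 (-0.31), and none of these passed after adjustment.

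Eno3 stood furthest from 0. It was lower in GF than in CTRL CCR7- cells by 1.01 ± 0.27 on the log2 scale, at an unadjusted p of 0.00187 (limma) that did not survive adjustment over all genes (adjusted p = 0.766). Its stage change was larger in GF than in CTRL by 1.15 ± 0.38 (95% interval 0.34 to 1.96, adjusted p = 0.999). Without GF CCR7- replicate 1 the CCR7- difference was -1.33 and passed (adjusted p = 0.0448). All 6 GF arrays but 2 of 6 CTRL arrays carry a trailing r in their codes, whose meaning is not given, and with this mark as a covariate the CCR7- difference was -1.21 (adjusted p = 0.993). The mean level of 6 listed mature DC genes was 7.91, 6.31 and 6.75 on the GF CCR7- arrays. On CTRL CCR7- arrays it was 7.68 to 7.93, and on Ifnar1-KO CCR7- arrays 6.70 to 7.56. These 6 genes had a median log2 difference of -0.92 for GF minus CTRL in CCR7- cells. Of them 4 had an unadjusted p under 0.05 (limma), and none passed after adjustment. Their part in the Eno3 difference was not tested.

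**Figure D5:**
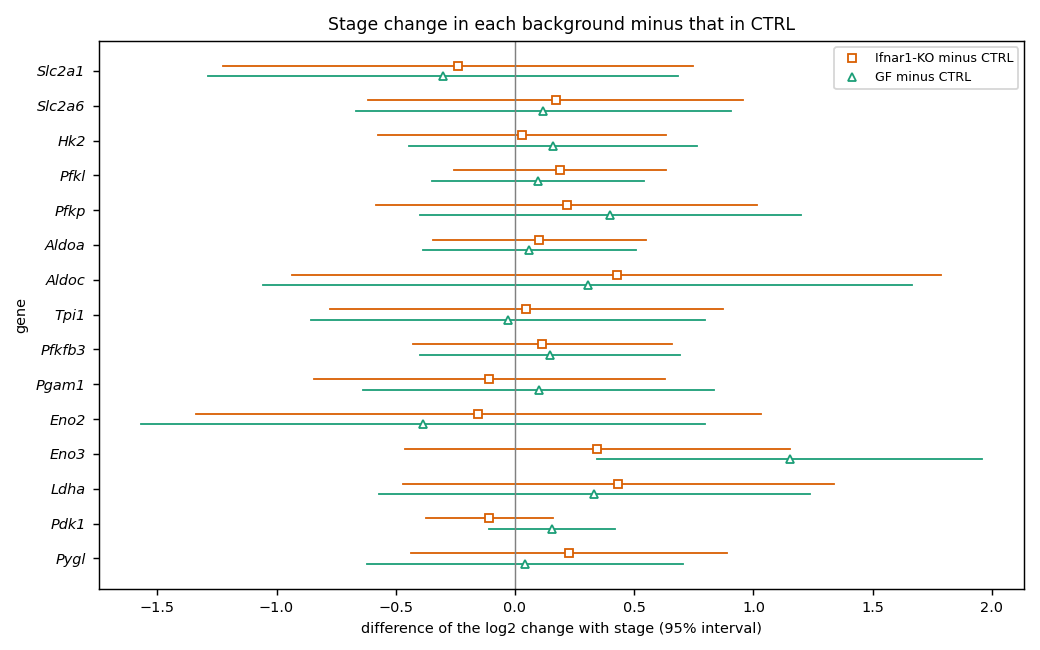
Log2 change with stage in Ifnar1-KO (squares) or GF (triangles) minus that in CTRL (x axis, with 95% intervals from limma), for the 12 genes of the plot of array levels and for Aldoa, Pfkl and Pdk1. All intervals but that of Eno3 in GF (0.34 to 1.96) cross 0.

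Genes of neighbouring pathways were counted from lists drawn up from general knowledge. Of 8 measured genes of the pentose phosphate pathway, which makes NADPH and ribose from glucose phosphate, none rose and 4 fell in CTRL (50%, beside 13.6% of all genes called lower), with a median log2 change of -0.54. The 2 with the largest changes were enzymes of its non-oxidative arm, though not the only ones in the list. Taldo1, the transaldolase, fell by 2.31 ± 0.10 on the log2 scale in CTRL (adjusted p = 1.48e-09), with log2 changes of -1.93 in Ifnar1-KO and -2.10 in GF. Tkt, the transketolase, had log2 changes of -1.40 ± 0.15 (adjusted p = 6.82e-06), -1.22 and -1.52. In Ifnar1-KO 3 of the 8 fell (37.5%, beside 10.8% of all genes) and in GF 4 (50%, beside 11.8%), and none rose.

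Of 17 other glycogen genes 2 rose and 1 fell in every background. That is 17.6%, below the 26.2%, 20.2% and 21.3% of all genes called in CTRL, Ifnar1-KO and GF. Gyg, glycogenin, the protein primer on which glycogen is begun, lay between 9.01 and 9.45 in CCR7- and 11.49 and 11.81 in CCR7+ cells. It rose by 2.63 ± 0.11 on the log2 scale in CTRL (adjusted p = 8.87e-10), 2.50 in Ifnar1-KO and 2.43 in GF. Gaa, the lysosomal glucosidase that degrades glycogen, rose by 2.53 ± 0.22 (adjusted p = 6.84e-07), 2.15 and 2.47. Phka2, a regulatory subunit of the kinase that activates phosphorylase, fell, with log2 changes of -1.05 ± 0.18 (adjusted p = 0.000416), -0.64 and -0.55. The median log2 change of the 17 in CTRL was 0.12.

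Of 29 measured genes of other glycolytic, gluconeogenic and pyruvate entry steps 2 rose and 7 fell in CTRL, 3 fell in Ifnar1-KO and 4 in GF. These shares of 31%, 10.3% and 13.8% were near or below those of all genes, 26.2%, 20.2% and 21.3%. G6pc3, a glucose phosphatase of the endoplasmic reticulum, and Adpgk, the ADP-dependent glucokinase, fell in CTRL, with log2 changes of -1.5 ± 0.27 and -0.97 ± 0.16 (adjusted p = 0.00072 and 0.000251). The list holds 5 subunits of the pyruvate dehydrogenase complex, the target of the kinases above. Dlat fell in CTRL and GF, with log2 changes of -0.74 and -0.92, and its change of -0.38 in Ifnar1-KO did not pass. Pdhb and Pdhx passed in CTRL alone, where they fell by 0.62 and 0.60 on the log2 scale. Their log2 changes were -0.01 and -0.39 in Ifnar1-KO and -0.34 and 0.13 in GF. Pdha1 and Dld passed in no background, with log2 changes of -0.51 and -0.35 in CTRL, -0.52 and -0.07 in Ifnar1-KO and -0.33 and -0.18 in GF.

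Of 20 measured partners, regulators and other targets of the hypoxia factor 7 rose and 2 fell in CTRL, 6 and 2 in Ifnar1-KO and 5 and 1 in GF. The shares called were 45%, 40% and 30%, beside 26.2%, 20.2% and 21.3% of all genes. Adm, a secreted vasodilator peptide, rose by 1.52 ± 0.39 on the log2 scale in CTRL, and Ndrg1, a stress-induced gene, by 1.2 ± 0.16 (adjusted p = 0.00834 and 5.1e-05). The median log2 change of the 20 in CTRL was 0.16. Known glycolytic targets of the factor among the 36 genes went both ways: Slc2a1, Hk2, Ldha and Pdk1 fell and Pfkfb3 and Aldoa rose in all 3 backgrounds. These examples were picked after the values were seen.

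Of 15 regulators of growth and glucose sensing 2 rose and 4 fell in CTRL, 1 and 4 in Ifnar1-KO and 2 and 3 in GF. The shares called were 40%, 33.3% and 33.3%, beside 26.2%, 20.2% and 21.3% of all genes. Myc, a transcription factor known to drive glycolytic genes in proliferating cells, lay between 8.20 and 8.96 in CCR7- and between 5.15 and 6.17 in CCR7+ cells. It fell, with log2 changes of -2.98 ± 0.21 in CTRL (adjusted p = 9.31e-08), -3.13 in Ifnar1-KO and -3.01 in GF. Txnip, a glucose-induced gene whose product limits glucose uptake, fell, with log2 changes of -1.71 ± 0.15 (adjusted p = 7.16e-07), -1.78 and -1.33. No gene of these 5 lists was called between backgrounds, and each comparison held 0 to 2 per list at an unadjusted p under 0.05.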

How the data were processed

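Thymic XCR1+ DCs were profiled on 18 arrays. Per the labels, RNA was extracted with the Qiagen RNeasy PLUS Micro kit and amplified with NuGEN Ovation Pico and Encore Biotin kits. The deposited values are log2 intensities made by the authors with RMA in oligo, per the submitters' processing notes. Not given in the sources used here are the versions and whether the arrays were normalised as 1 set. Such values carry no read depth, and the number of arrays limits the precision: the median 95% half-width was 0.27 log2 units for a stage change and 0.38 for a difference of stage changes.

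Of 35556 probesets 21789 carried 1 gene symbol, giving 19938 genes with the highest-mean probeset each. No gene was filtered and values were not normalised again. All 36 symbols matched RefSeq through the Entrez ID. Limma 3.58.1 (R 4.3.3) was fitted to all 18 arrays with 1 mean per group, and a gene was called where its p, adjusted by Benjamini-Hochberg over all genes of the comparison, was under 0.05. The fit was tested on simulated data. Python 3.11.15 with pandas 2.3.3, numpy 2.4.6 and matplotlib 3.10.9 was used for tables and figures.

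The genes, lists and alternatives were chosen with earlier results of these data known. Values on every array are given for genes that passed in CTRL and moved by 1 log2 unit or more, for the largest change in each role, and for Ldhb, which was added after seeing the values. In the other lists the 2 called genes with the largest changes in CTRL were named, and Phka2 and the pyruvate dehydrogenase subunits were added after seeing the values. In the replicate 2 CTRL pair the letters of the array codes are inverted relative to other pairs, and the stage in the labels was used. Deviations of same-numbered arrays correlated across stages at 0.1 to 0.188 in CTRL, 0.236 to 0.321 in Ifnar1-KO and 0.00354 to 0.267 in GF. All were positive, which speaks for pairing, though the lowest were in GF. The model without pairs was kept, and the fit with pairs was run as an alternative. Alternatives were an intensity trend, array weights, a filter on level, centred arrays, other probeset choices, a replicate block, fits of only the groups compared, the trailing r of the codes as a covariate, leaving out each array, and leaving out both Ifnar1-KO replicate 2 arrays.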

Additional observations from a re-analysis of the deposited data

How the results depend on the processing

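Under the alternatives the number of called genes of the 36 ranged from 15 to 21 in CTRL, 13 to 17 in Ifnar1-KO and 14 to 18 in GF. With 1 array left out it was 15 to 20, 13 to 16 and 14 to 18. Between backgrounds it stayed at 0 under every alternative run, except that 1 gene, Eno3, was called in GF minus CTRL in CCR7- cells without GF CCR7- replicate 1, so that the range with 1 array left out was 0 to 1. With the replicate block, which pairs stages by replicate number for the stage changes and their differences, the counts were 20, 16 and 17. Ldhb in CTRL (limma adjusted p = 0.0389) was the only call among the 36 that it changed. Between backgrounds within a stage, the block instead gave all arrays of the same replicate number a shared term. The Gbe1 change in Ifnar1-KO, -0.14, ranged from -0.64 without both Ifnar1-KO replicate 2 arrays to 0.17 without Ifnar1-KO CCR7- replicate 3, where its sign reversed, and with 1 array left out from -0.50 to 0.17. Over the single results 1620 values kept their direction and side of the threshold, 68 lost the call, 13 gained one and 1 reversed. Calls lost beyond those given with the results were Hif1a in Ifnar1-KO with an intensity trend (adjusted p = 0.056), centred arrays (0.0553) or only the groups compared (0.132), and, with only the groups compared, Aldoc in CTRL (0.0756), Slc16a1 in GF (0.0524) and Ldhb in Ifnar1-KO (0.146) and GF (0.096). Hif1a in Ifnar1-KO also lost it without both replicate 2 arrays of that background (0.218), and Ldhb in Ifnar1-KO then (0.195) and with either other choice of probesets (0.0608 and 0.0517). Further calls were gained (limma adjusted p). Hif1a in GF passed with array weights (0.0490), the filter on level (0.0450) or without both Ifnar1-KO replicate 2 arrays (0.0494). Aldoc in GF passed with the filter on level (0.0399), only the groups compared (0.0220) or without CTRL CCR7- replicate 1 (0.0277). Without that array Aldoc also passed in Ifnar1-KO (0.0494). For Slc2a6, Hk2, Pfkfb3, Pgam1, Eno2, Eno3, Ldha and Pygl the call held under every alternative in all 3 backgrounds. It also held throughout for Slc2a1 and Pfkp, but close to the threshold, at a limma adjusted p of up to 0.0490 and 0.04995.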

Other observations

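Eno2 and Tpi1 lie on chromosome 6 with 4 annotated genes between them, 2 of them protein coding, in the RefSeq annotation of GRCm38.p6. Eno2 rose and Tpi1 fell in all 3 backgrounds, by 3.08 and -1.12 log2 units in CTRL. This pair was picked after the values were seen.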
